A study of Mus musculus with 4 samples.

Results

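The hypoxia response and glycolysis genes described here are 35 genes of the 27998 in the count tables, matched by symbol, and every one was found once and was measured. They comprise 18 genes of glucose uptake, glycolysis and pyruvate use and 17 other targets of the hypoxia response. They were read in inner ear organoids, 3-dimensional aggregates of mouse embryonic stem cells that are led towards sensory epithelium of the inner ear. WT organoids came from R1/E embryonic stem cells, derived strain 129X1x129S1, and KO organoids from R1/E-Tmprss3KO-GFPKI cells of the same derived strain, in which Tmprss3 is labelled as knocked out and GFP as knocked in. Each genotype was sampled at day 25 and at day 35 with 1 droplet library per genotype and day, so 4 libraries in all. The labels do not give the number of organoids pooled per library, the number of KO clones or the driver of GFP. With 1 library a group no difference has a replicate check, and the intervals given below cover counting error only.

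Cells meet low oxygen through the hypoxia-inducible factors, whose alpha subunits are hydroxylated by prolyl hydroxylases when oxygen is present and are then bound by the von Hippel-Lindau protein and degraded. When the alpha subunit is spared it pairs with ARNT and binds short elements with the core ACGTG, or with the close relative GCGTG, and it raises glucose transporters, most glycolytic enzymes, lactate export, angiogenic signals and proteins that remove mitochondria. Glycolysis itself splits glucose to pyruvate, and its enzymes are also abundant in cells that do not lack oxygen, such as muscle. Organoids have no blood supply, and oxygen reaches their inner cells by diffusion.

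Barcodes with at least 500 genes and at most 10% mitochondrially encoded unique molecular identifiers (UMIs) were kept, which left 9768 WT and 11190 KO cells at day 25 and 8166 WT and 6729 KO cells at day 35. The median cell held 6166.5, 6371, 3089 and 4420 UMIs in that order, and the median mitochondrial share was 2.69%, 2.16%, 4.81% and 3.42%. Pairs of libraries shared between 66 and 136 cell barcodes. Tmprss3 gave between 5 and 18 UMIs per library, too few to check the genotype, and the labels do not say which part of it was removed. A list of 18 immediate early and heat shock genes summed to 6564 and 7312 counts per 1000000 (CPM) at day 25 and to 11592 and 12630 CPM at day 35 in WT and KO, and 11 of the 18 were at least 1.5-fold higher at day 35 in each genotype, 9 of them in both, beside 15.8% of all genes in WT and 23.9% in KO. That list and the mitochondrial share moved with the day, and their part in the differences between days was not tested. The 35 genes together held 2.55%, 2.35%, 2.22% and 2.39% of the UMIs.

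Cell classes were gated on marker genes, and none of the 35 genes is a marker. A cell entered a class with at least 3 distinct markers and at least 10 marker UMIs per 10000, or 30 for keratinocyte and fibroblast markers and 100 for skeletal myotube markers. These limits were set after the markers' detection had been seen. Cells that passed more than one gate were put in none, and cells that passed no gate are called ungated. They made up 54.7%, 57.1%, 58.8% and 47.1% of the libraries, so that much of each organoid carries no class name. Cycling cells were gated separately and overlap the classes. Every class had more of its own markers among its 10 leading genes than of any other class. The gates favour this by construction, so it is no independent check of the class names. The KO library at day 35 held 318 pluripotent-like cells (Pou5f1, Dppa5a, Utf1), 224 of them cycling, against 13 (WT, day 25), 2 (KO, day 25) and 0 (WT, day 35). Where one of the 35 genes passed or lost the 1.5-fold limit over all cells of that library without these cells, both values are given. The other pathway genes are given with these cells only.

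The promoters of 5 genes on which the results turn are shown because they carry the core of the hypoxia response element. Windows run from 250 bases before to 50 after the annotated start (RefSeq, GRCm38.p6), 5′ to 3′ on the gene's strand. Capitals mark either core on either strand, and CACGTG counts as 2 overlapping matches.

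Adm, chr7:110627407-110627706, plus strand: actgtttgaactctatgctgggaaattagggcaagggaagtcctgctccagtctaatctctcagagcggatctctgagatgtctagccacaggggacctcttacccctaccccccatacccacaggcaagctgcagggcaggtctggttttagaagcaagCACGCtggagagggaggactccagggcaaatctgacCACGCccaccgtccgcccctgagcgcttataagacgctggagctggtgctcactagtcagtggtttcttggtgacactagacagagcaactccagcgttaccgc
Bnip3, chr7:138909457-138909756, minus strand: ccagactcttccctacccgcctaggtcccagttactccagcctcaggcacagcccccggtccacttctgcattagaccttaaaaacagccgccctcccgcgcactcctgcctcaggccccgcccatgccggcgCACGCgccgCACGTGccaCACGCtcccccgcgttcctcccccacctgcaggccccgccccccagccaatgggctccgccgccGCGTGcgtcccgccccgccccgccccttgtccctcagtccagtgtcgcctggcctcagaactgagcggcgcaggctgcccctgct
Higd1a, chr9:121857747-121858046, minus strand: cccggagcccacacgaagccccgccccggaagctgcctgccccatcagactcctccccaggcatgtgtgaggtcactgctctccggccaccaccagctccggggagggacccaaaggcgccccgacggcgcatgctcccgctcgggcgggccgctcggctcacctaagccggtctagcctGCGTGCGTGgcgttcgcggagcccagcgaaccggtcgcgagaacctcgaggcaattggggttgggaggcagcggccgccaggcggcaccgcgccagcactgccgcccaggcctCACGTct
Car9, chr4:43506776-43507075, plus strand: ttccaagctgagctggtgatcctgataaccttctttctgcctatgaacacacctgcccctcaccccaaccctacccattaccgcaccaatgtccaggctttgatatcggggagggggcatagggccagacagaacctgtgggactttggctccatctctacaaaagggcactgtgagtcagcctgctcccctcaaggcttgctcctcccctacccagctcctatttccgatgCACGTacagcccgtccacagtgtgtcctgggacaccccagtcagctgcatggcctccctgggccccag
Pgk1, chrX:106186850-106187149, plus strand: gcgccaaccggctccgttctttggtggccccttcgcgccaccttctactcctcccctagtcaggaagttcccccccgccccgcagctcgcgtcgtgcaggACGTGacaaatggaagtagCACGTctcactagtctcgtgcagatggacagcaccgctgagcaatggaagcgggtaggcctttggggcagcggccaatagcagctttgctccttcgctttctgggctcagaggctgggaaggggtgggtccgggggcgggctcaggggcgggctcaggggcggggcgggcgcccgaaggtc

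The Bnip3 window has 5 matches, 4 of them within a short stretch that includes a palindromic CACGTG. Higd1a has 3, of which 2 overlap. Adm and Pgk1 have 2 each and Car9 has 1. Of the 35 genes 32 were in the promoter table, and 30 of them (93.8%) had a match in at least one window, against 46.7% of 27025 genes. At least 2 matches in one window were found in 23 (71.9%) against 22.9% of all genes, and at least 3 in 12 (37.5%) against 10.2%. The motifs contain CG, and the windows of these genes were richer in G and C (median 64.0%) than all windows (median 52.7%). The genes were listed as hypoxia targets, so the matches describe them and were not tested. Pgk1, with the lowest ratio between days in both genotypes, and Adm, with the highest in WT, have the same number of matches.

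The largest differences of single genes of the list over all cells were between the days. The counts over the list were not above those of all genes, of which 15.8% were higher and 27.0% lower in WT, and 23.9% and 14.9% in KO. From day 25 to day 35 Adm, Bnip3 and Car9 were higher in both genotypes, Car9 in WT not with cell classes weighted equally, and Pgk1 was lower in both. Vegfa and Higd1a were higher, and Gapdh, Gpi1, Eno1 and Slc2a3 lower, in WT only by the 1.5-fold count, and the difference between genotypes was not tested. Without pluripotent-like cells Vegfa and Higd1a passed the 1.5-fold limit in KO as well. A gene was counted as higher or lower when its CPM differed by at least 1.5-fold with at least 20 UMIs over both libraries. In sums over all cells fewer cells of a type and less RNA per cell cannot be told apart.

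Adm encodes adrenomedullin, a secreted peptide that dilates vessels. It was at 100 CPM in WT (95% Poisson interval 97.9 to 103) and 114 CPM in KO (112 to 116) at day 25, and at 223 CPM (218 to 229) and 201 CPM (196 to 205) at day 35. Both day 35 libraries lay above both day 25 libraries, and the log2 ratio of day 35 over day 25 was 1.16 in WT and 0.82 in KO. Bnip3 encodes a mitochondrial outer membrane protein that recruits the autophagy machinery. It was at 383 and 444 CPM at day 25 in WT and KO and at 798 and 730 CPM at day 35, with log2 ratios of 1.06 and 0.72. Higd1a, a small inner membrane protein tied to respiratory complexes, had 1052 CPM (WT) and 1072 CPM (KO) at the earlier day and 1710 and 1569 CPM at the later. Its log2 ratio was 0.70 in WT and 0.55 in KO, just under the 1.5-fold limit in KO (0.71 without pluripotent-like cells).

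Vegfa, the main growth factor for blood vessels, was at 79.8 CPM in WT and 117 CPM in KO at day 25 and at 145 and 156 CPM at day 35. The WT library at day 25 was the low one of the 4, and the log2 ratios between days were 0.86 in WT and 0.42 in KO (0.61 without pluripotent-like cells). Car9, a membrane carbonic anhydrase that acidifies the outside of the cell, stood at 85.1 and 77.3 CPM at day 25 and at 144 and 188 CPM at day 35, with log2 ratios of 0.76 in WT and 1.28 in KO. Otic epithelial-like cells, the class of at least 50 cells in which Car9 was highest in each library, made up 1.14% and 0.78% of cells at day 25 and 7.35% and 13.3% at day 35 in WT and KO. When the classes were weighted equally on both days, with ungated cells left out, the Car9 log2 ratio was −0.26 in WT and 0.38 in KO. Its direction in WT thus turned under this weighting. Inside single classes of WT, ungated cells included, Car9 was above 0 in 4 of 6 and lowest in otic epithelial-like cells, at −0.58.

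**Figure D1:**
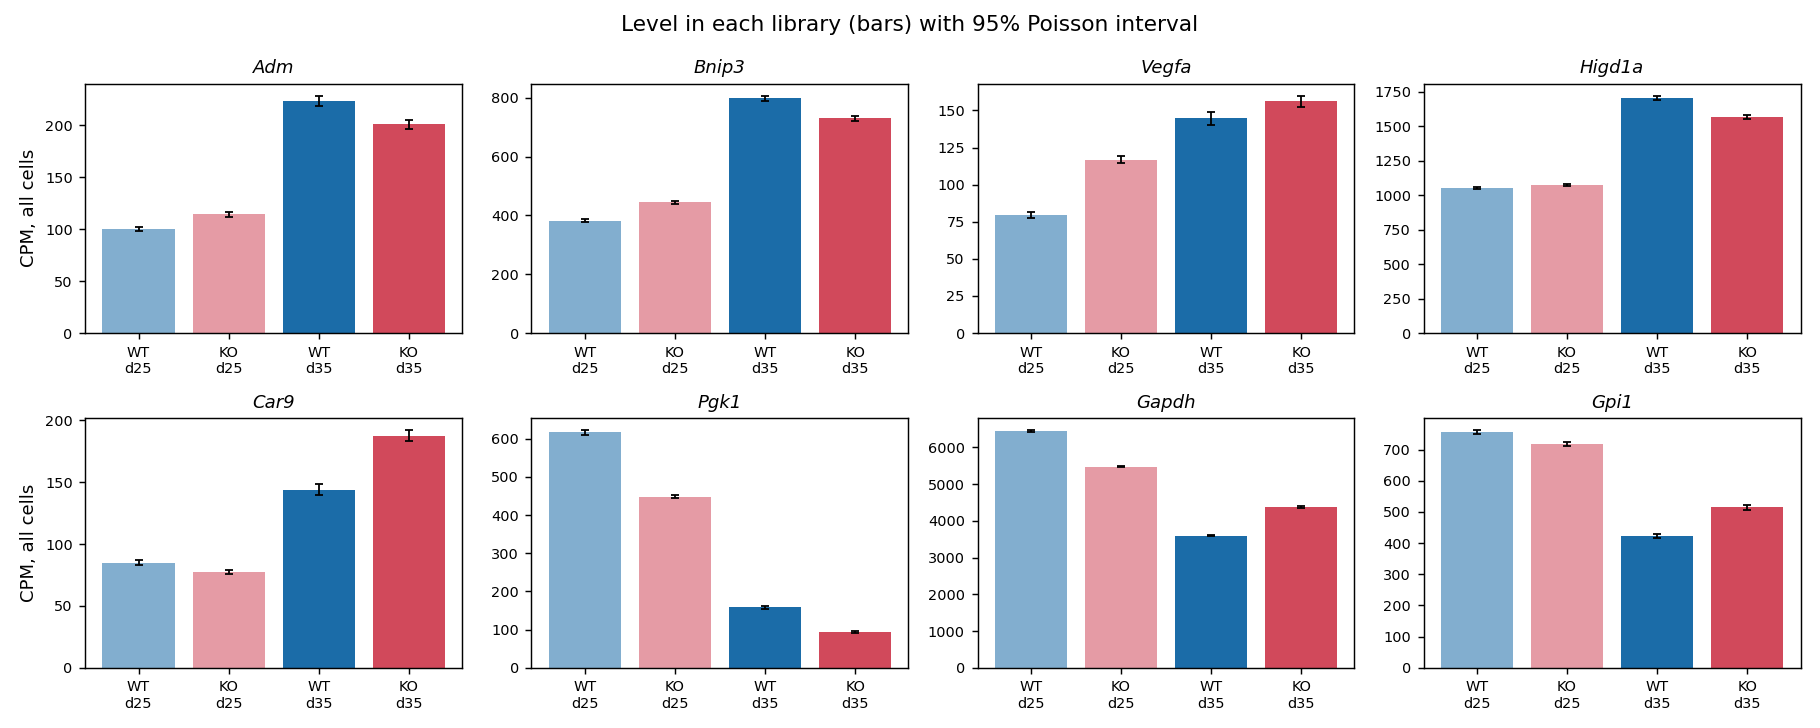
Level of 8 genes in CPM over all UMIs (y axis, from 0) in the 4 libraries (x axis; WT blue, KO red, day 25 pale, day 35 dark), with 95% Poisson intervals as error bars. Adm, Bnip3, Vegfa, Higd1a and Car9 are higher in both day 35 libraries than in both day 25 libraries, and Pgk1, Gapdh and Gpi1 are lower.

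Pgk1 encodes phosphoglycerate kinase 1, which makes the first ATP of glycolysis. It was at 617 CPM in WT and 448 CPM in KO at day 25 and at 158 and 93.7 CPM at day 35. The 4 libraries did not overlap, and the log2 ratio between days was −1.96 in WT (95% interval −2.01 to −1.92) and −2.26 in KO (−2.31 to −2.21). No other of the 35 genes was lower by as much in either genotype. Each day has its own libraries, and whether those of both days were prepared and counted alike is not given in the sources used here, so day and library cannot be told apart. Gapdh, glyceraldehyde-3-phosphate dehydrogenase, was at 6449 and 5470 CPM at day 25 and at 3600 and 4385 CPM at day 35, with log2 ratios of −0.84 in WT and −0.32 in KO. Gpi1, glucose-6-phosphate isomerase, went from 755 and 718 CPM to 423 and 515 CPM (log2 −0.84 and −0.48). Eno1, the main enolase, had a log2 ratio of −0.66 in WT and −0.05 in KO, and Slc2a3, the high-affinity glucose transporter GLUT3, −0.86 and 0.04.

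Counted over the list, 5 genes were higher (Adm, Bnip3, Vegfa, Car9, Higd1a) and 5 lower (Pgk1, Slc2a3, Gapdh, Gpi1, Eno1) at day 35 in WT, where 15.8% of all genes were higher and 27.0% lower. In KO 3 were higher (Car9, Adm, Bnip3) and 1 lower (Pgk1), beside 23.9% and 14.9% of all genes. Vegfa and Higd1a joined the higher genes of KO when pluripotent-like cells were left out. The counts are thus not above the background in either direction, save that no gene of the glycolysis group was higher in either genotype and none of the other targets was lower. The median log2 ratio was −0.32 over the 18 glycolysis genes and 0.16 over the 17 other targets in WT, and 0.04 and 0.14 in KO, while the median of all genes was −0.14 in WT and 0.14 in KO. The 7 genes of lower glycolysis had a median of −0.53 in WT and −0.07 in KO, and the 4 mitochondrial membrane targets (Bnip3, Bnip3l, Higd1a, Fam162a) 0.47 in both. The sign was the same in WT and KO for 25 of the 35 genes (71.4%), against 70.7% of all genes.

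**Figure D2:**
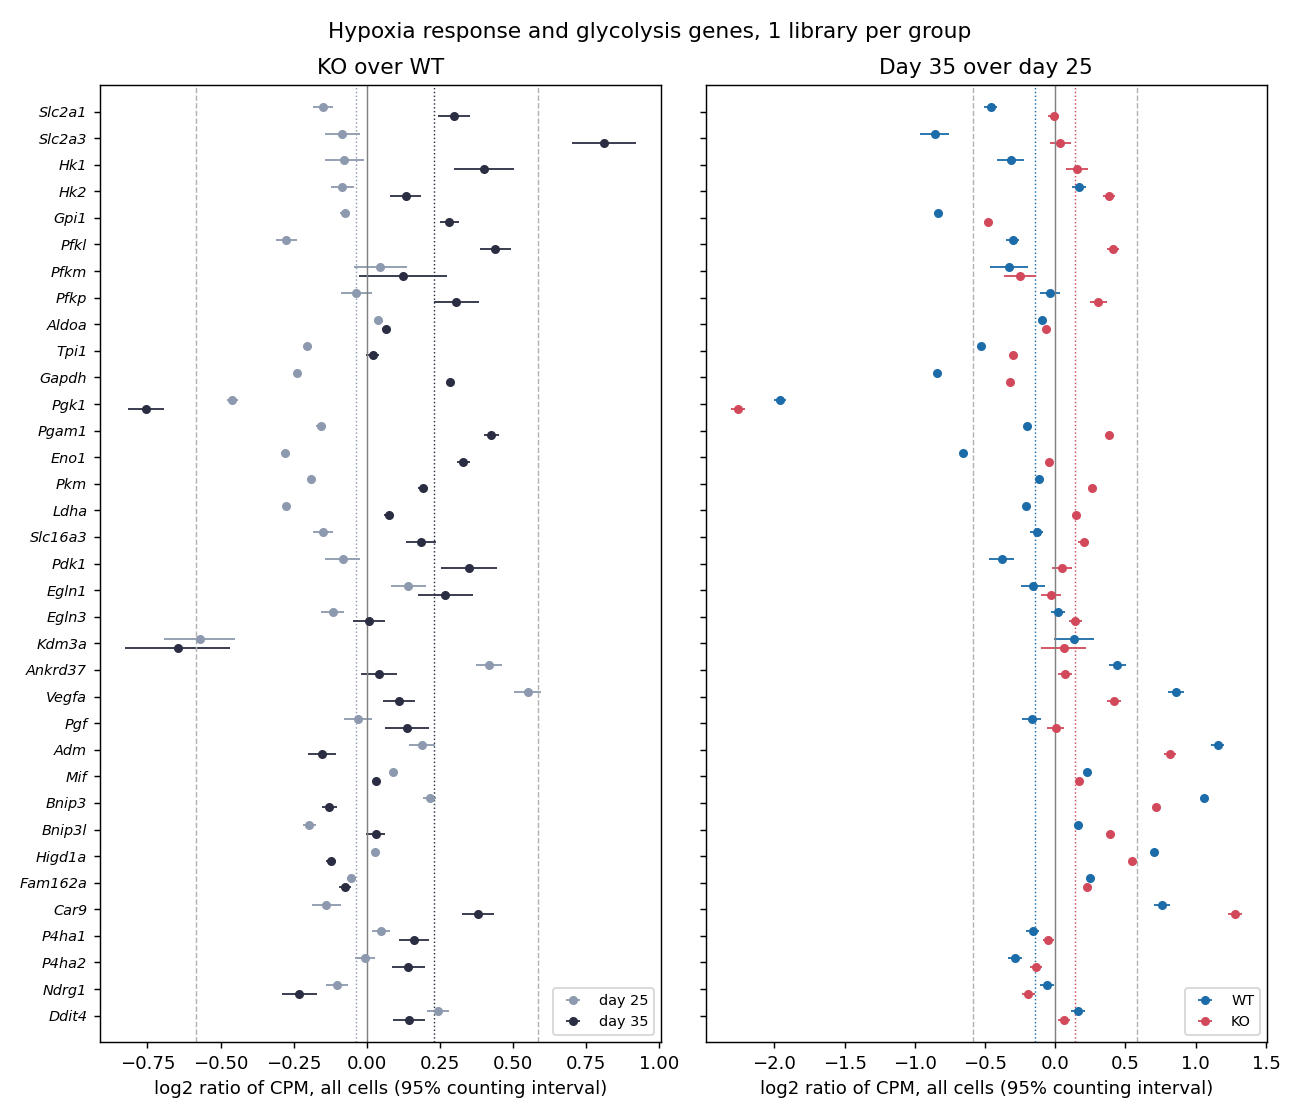
Log2 ratio of CPM over all cells (x axis) for each of the 35 genes (y axis), KO over WT on the left (grey day 25, dark day 35) and day 35 over day 25 on the right (blue WT, red KO), with 95% counting intervals. Dashed lines mark 1.5-fold and dotted lines the median of all genes. Pgk1 stands apart on the right at −1.96 and −2.26, and the KO over WT ratios lie mostly within 1.5-fold.

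Pgk1 was lower at day 35 inside every class with at least 50 cells on both days, cycling cells aside, 6 of 6 in WT (log2 −2.59 in myogenic progenitor-like to −1.51 in skeletal myotube-like cells) and 8 of 8 in KO (−2.32 in fibroblast-like to −1.16 in adipocyte-like cells). In otic epithelial-like cells it went from 757 to 186 CPM in WT and from 552 to 117 CPM in KO. Bnip3 was above 0 in 6 of 6 classes in WT (from 0.64 in myogenic progenitor-like cells) and in 8 of 8 in KO (0.54 to 1.47). Higd1a was also above 0 in all of them, and Adm too, from 0.10 in otic epithelial-like cells of WT to 2.81 in astrocyte-like cells of KO. Gapdh was below 0 in 6 of 6 classes in WT but in 6 of 8 in KO. Pgk1, Bnip3, Higd1a and Adm thus kept their direction inside each of these classes. Cycling cells, which overlap them, did not follow in KO, with Pgk1 at −2.87 but Adm at −0.58, Bnip3 at −0.33 and Higd1a at −0.29, and 16 of the 17 targets outside glycolysis below 0. Of those 17, 11 were 1.5-fold lower, beside 33.8% of all genes, whose median was −0.13. Of the 346 KO cycling cells at day 35, 224 were pluripotent-like, against 0 at day 25. The part of these cells in the ratios was not tested. In WT cycling cells Adm was at 1.83, Bnip3 at 0.78 and Higd1a at 0.28. Vegfa was above 0 in 6 of 6 classes in WT and in 6 of 8 in KO.

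**Figure D3:**
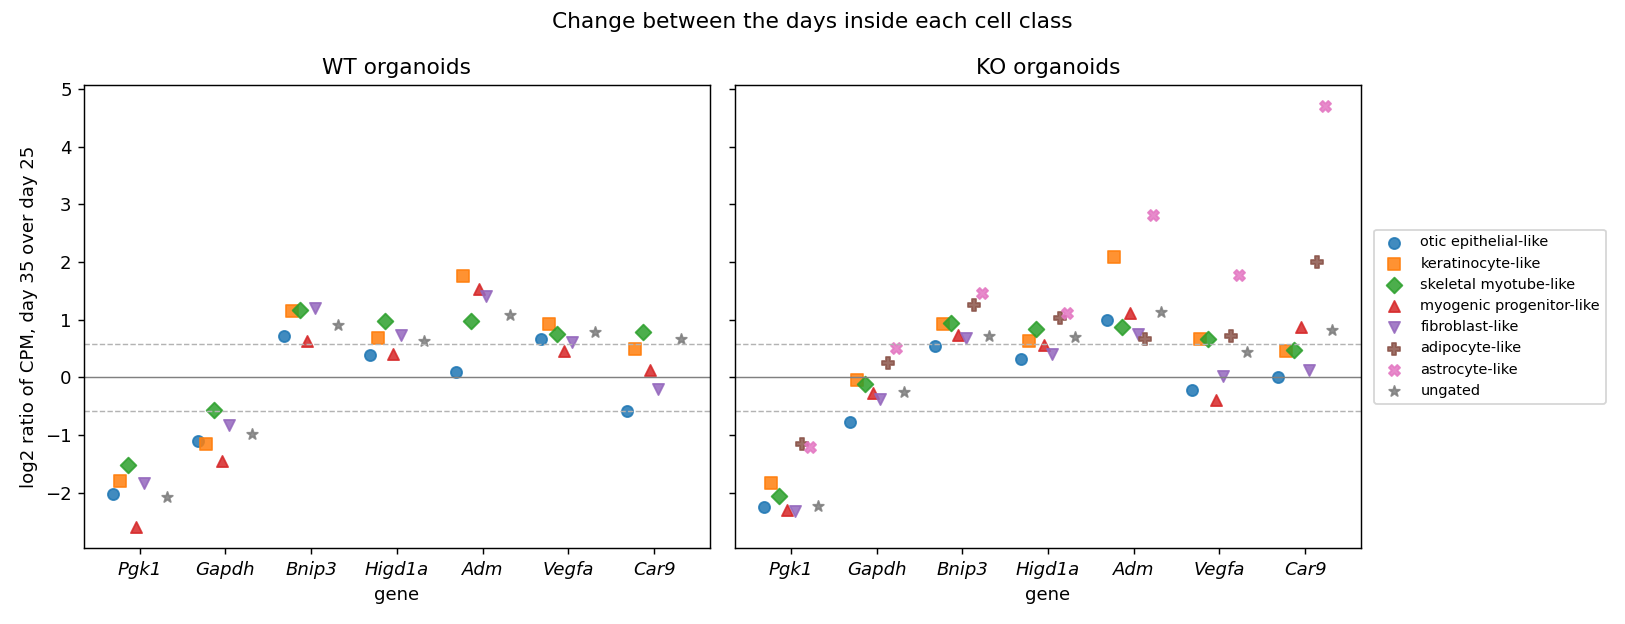
Log2 ratio of CPM, day 35 over day 25 (y axis), of 7 genes (x axis) inside each marker-gated class with at least 50 cells on both days, without the cycling gate, WT on the left and KO on the right. Each symbol is 1 class and dashed lines mark 1.5-fold. Every symbol for Pgk1 lies below −1 and every symbol for Bnip3 and Adm above 0, whereas Car9 spreads from −0.58 to 4.70, the latter against 1 UMI in KO astrocyte-like cells at day 25.

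The classes differed in how the rest of the list moved between days. In skeletal myotube-like cells of WT 10 of the 35 genes were higher and 2 lower at day 35 (13.6% and 22.4% of all genes in the same cells), all 10 among the targets outside glycolysis. In KO myotube-like cells 8 were higher and 3 lower (14.1% and 19.9%). In otic epithelial-like cells the list went the other way, with 2 higher and 11 lower in WT (18.8% and 21.1%) and 1 higher and 10 lower in KO (17.4% and 17.1%). There the log2 ratio of P4ha2, a collagen prolyl hydroxylase subunit, was −1.28 in WT and −1.11 in KO, and that of Pgf, placental growth factor, −1.23 and −1.11. Astrocyte-like cells of KO had 22 of 34 genes higher and 1 lower (16.4% and 20.7% of all genes), and adipocyte-like cells of KO 19 of 35 higher and 3 lower (14.7% and 25.3%). The astrocyte-like gate held 66 cells at day 25 and 136 at day 35, with a median mitochondrial share of 3.19% and 6.51%. The next highest markers in them were skeletal myotube at day 25 (median 4.69 UMIs per 10000) and otic epithelial at day 35 (7.13). The part of these values in the difference was not tested. The same 66 cells are the KO side of the day 25 comparison of genotypes given below.

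Keratinocyte-like cells had 6 higher and 9 lower in WT (23.2% and 25.8%) and 9 higher and 1 lower in KO (17.5% and 18.1%), with Adm at 1.76 and 2.09. Fibroblast-like cells had 6 higher and 4 lower in WT (15.1% and 20.9%) and 2 higher (Adm, Bnip3) and 1 lower (Pgk1) in KO (18.3% and 12.1%). Myogenic progenitor-like cells had 2 higher (Adm, Bnip3) and 14 lower in WT (24.9% and 22.8%) and 6 higher and 4 lower in KO (24.2% and 18.2%). Adm was thus among the higher genes in each of these 3 classes in both genotypes. Ungated cells had 5 higher and 7 lower in WT (15.2% and 26.8%) and 4 higher and 1 lower in KO (20.6% and 16.1%), and the higher ones in KO were Adm, Car9, Bnip3 and Higd1a. Cycling cells had 5 higher and 12 lower in WT (21.3% and 24.9%) and 4 higher and 15 lower in KO (24.8% and 33.8%), with Slc2a3 at −1.36 in WT and 2.24 in KO, where 224 of the 346 day 35 cells were pluripotent-like.

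Several glycolytic genes have processed copies in the mouse genome, and how multiply mapped reads were counted is not given in the sources used here. In the last 500 bases of each gene's transcripts, 68.1% of 50-base windows of Eno1, 63.2% of Gapdh, 56.1% of Mif, 27.4% of Gpi1 and 24.4% of Bnip3 also occur in transcripts of another gene, but 7.32% of Pgk1. The levels of Eno1, Gapdh and Mif are uncertain for that reason. The copy Pgk1-rs7, on chromosome 12, was at 7.33 and 6.69 CPM at day 25 and at 3.11 and 1.41 CPM at day 35 in WT and KO. It was thus also lower at day 35, with log2 ratios of −1.24 and −2.25. So were the copies Eno1b and Aldoart1. Eno1b was at 97.1 and 89.1 CPM at day 25 and at 28.7 and 18.3 CPM at day 35 in WT and KO. Aldoart1, with few UMIs, was at 0.62 and 0.65 CPM and at 0.19 and 0.13 CPM. Among all genes with at least 50% of windows shared the median log2 ratio between days was −0.11 in WT and 0.03 in KO, and among those with none shared −0.17 and 0.13. At least 4-fold lower at day 35 were 4.38% of the former in WT and 5.15% in KO, against 5.90% and 2.42% of the latter. This check was chosen after the Pgk1 values had been seen.

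Of 60 other genes of the pathway, 57 had enough UMIs in the WT comparison of days, and 12 were higher and 6 lower, beside 15.8% and 27.0% of all genes. In KO 14 of 58 were higher and 4 lower, beside 23.9% and 14.9%, so the share of higher genes was near the background in KO. Pdk4, a kinase that keeps pyruvate out of mitochondria, was at 1.83 and 2.71 CPM at day 25 and 17.2 and 14.2 CPM at day 35 in WT and KO, log2 3.23 and 2.39. Bhlhe40, a transcriptional repressor induced by hypoxia, was at 66.8 CPM at day 25 and 154 CPM at day 35 in WT, and the log2 ratio of Gbe1, the glycogen branching enzyme, was 1.16. In KO the next highest were Tigar, a fructose bisphosphatase that slows glycolysis, at 1.63 and Ldhb, the heart form of lactate dehydrogenase, at 1.38. Hif3a, a hypoxia factor subunit with inhibitory forms, was lower in both, from 6.78 to 1.46 CPM in WT and from 6.03 to 2.45 CPM in KO (log2 −2.22 and −1.30). Ero1l, an endoplasmic reticulum oxidase that hypoxia induces, is named here after its values were seen. It was at 394 CPM in both genotypes at day 25 and at 814 and 911 CPM at day 35.

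Between genotypes the list differed little. At day 25 none of the 35 genes was 1.5-fold higher or lower in KO, beside 5.65% of all genes higher and 11.0% lower. The median log2 ratio was −0.08 over the 35 genes (−0.15 over glycolysis, 0.03 over the other targets) and −0.04 over all genes. Vegfa came nearest on the high side, at 0.55 (0.50 to 0.60), and Kdm3a, a histone demethylase that is itself a hypoxia target, on the low side at −0.57 (−0.69 to −0.45). Each passed the limit under 3 other settings, Vegfa at up to 0.64 with classes weighted equally and Kdm3a at down to −0.67 with each cell thinned to 2000 UMIs. The next were Ankrd37, an ankyrin repeat protein, at 0.42, from 90.2 to 121 CPM, and Pgk1 at −0.46. Of the other pathway genes 2 of 58 were higher and none lower, Hk3, a hexokinase of blood cells, at 2.91 on 68 UMIs, and Bhlhe40 at 0.63. Immune-like cells numbered 0 in WT and 45 in KO at that day, and their part in the Hk3 ratio was not tested.

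At day 35 the 8 genes of glucose uptake and upper glycolysis were all above 0 in KO, with a median of 0.30, and all genes had a median of 0.23. The lowest of the 8 was 0.12, and trimmed mean of M values factors moved all genes by −0.20. That all 8 share a sign thus depends on the scaling. Counted by fold, 1 gene was higher and 2 lower, beside 21.5% and 6.08% of all genes. The higher one was Slc2a3, at 31.9 CPM in WT and 55.9 CPM in KO (log2 0.81, 0.70 to 0.92). Pluripotent-like cells, found in number only in that KO library, held Slc2a3 at 135 CPM, and without them the ratio was 0.45. The lower ones were Pgk1 (−0.76, −0.82 to −0.69) and Kdm3a, at 19.0 CPM in WT and 12.1 CPM in KO (−0.65, −0.83 to −0.47; −0.58 without pluripotent-like cells). Pgk1 and Kdm3a were below 0 in KO on both days, and 12 of 35 genes (34.3%) kept their sign between the days, against 46.2% of all genes. The median over the list, 0.14, lay below the median of all genes, and with trimmed mean of M values factors it was −0.07 and with median-of-ratios factors −0.08. Of 57 other pathway genes 7 were higher, led by Tigar (2.34), Slc16a7 (1.23) and Ldhb (0.86), and 3 lower. The lower ones were the muscle isoenzymes Pgam2 (−1.56), Eno3 (−1.18) and Pygm (−0.98), and skeletal myotube-like cells numbered 615 in WT and 171 in KO at that day.

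Inside classes Pgk1 was below 0 in KO in 10 of 10 classes at day 25 (−0.72 to −0.30) and in 6 of 6 at day 35 (−1.03 in fibroblast-like to −0.24 in myogenic progenitor-like cells). Vegfa at day 25 was 1.12 higher on the log2 scale in otic epithelial-like cells of KO (0.86 to 1.39), 152 CPM in WT against 331 CPM, and 0.97 higher in neuron-like cells. At day 35 the same otic ratio was 0.25. In ungated cells at day 35 8 of the 35 genes were higher and 1 lower in KO, beside 13.3% and 6.27% of all genes, with a list median of 0.33 against 0.17. The higher ones were Pfkp, P4ha1, Pfkl, Slc2a3, Slc16a3, Hk1, Pgf and P4ha2, between 0.59 and 0.75, which cover glucose entry, the phosphofructokinase step, lactate export and collagen hydroxylation. These ungated cells had a median mitochondrial share of 3.99% in WT and 1.75% in KO, and a median of 2915 and 4054 UMIs. Their mix of cell types may differ between genotypes, and the part of this in the ratios was not tested. Otic epithelial-like cells had 4 higher (Slc2a3, Slc16a3, Pfkp and Egln3) and 1 lower (Pgk1) with a median of 0.37, beside 13.1% and 6.41% and a median of 0.11. In fibroblast-like cells the direction was not shared, with none higher and 3 lower (Pgk1, Adm, Kdm3a; 15.1% and 4.77% of all genes).

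At day 25 keratinocyte-like cells of KO had 7 of 35 genes lower and none higher, beside 10.9% and 8.30% of all genes, with a median of −0.41. Astrocyte-like cells had 17 lower and none higher, beside 12.0% and 17.6%, with a median of −0.57 and with Hk2, Adm, Egln1 and Ankrd37 between −1.89 and −1.37. Car9 had 44 UMIs in these WT cells (44.6 CPM) and 1 UMI in KO (an upper limit of 11.7 CPM). The astrocyte-like gate held 117 WT and 66 KO cells, whose astrocyte markers had a median of 32.7 and 22.8 UMIs per 10000 and whose median mitochondrial share was 5.67% and 3.19%. These values moved with the result and their part in it was not tested.

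At day 25 otic epithelial-like cells had 4 higher (Vegfa, Pfkp, Egln1, Ndrg1) and 1 lower (Kdm3a, −0.99) in KO, beside 13.0% and 8.61% of all genes. Neuron-like cells had 3 higher (Vegfa, Pfkp, Pgf) and none lower (10.5% and 6.47%), and Schwann or satellite glia-like cells 2 higher (Ankrd37, Vegfa) and 1 lower (17.9% and 9.57%). Skeletal myotube-like cells had 2 higher (Ankrd37, Ddit4) and none lower (8.33% and 6.26%), and myogenic progenitor-like cells 1 of each (Adm and Hk2; 8.91% and 6.93%). Higher calls in these 5 classes thus included Vegfa in 3 and Ankrd37 in 2. Fibroblast-like cells had none higher and 1 lower, Car9 (5.49% and 6.02%), and ungated cells none higher and 1 lower, Kdm3a (4.33% and 10.3%). Adipocyte-like cells had none higher and 8 lower (8.10% and 7.59%), led by Kdm3a at −0.93, and cycling cells none higher and 3 lower (5.79% and 8.41%).

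At day 35 skeletal myotube-like cells had 3 higher in KO (Ankrd37, Pfkm, Hk1) and 3 lower (Pgf, Pgk1, Slc2a3), beside 13.5% and 9.49% of all genes. Keratinocyte-like cells had 3 higher (Pdk1, Hk1, P4ha2) and 2 lower (Pgf, Pgk1) of 32 with enough UMIs (20.1% and 15.3%). The 3 higher ones rest on 52, 41 and 113 UMIs, and the counting interval of each includes 0. Myogenic progenitor-like cells, with 58 KO cells, had 7 higher and 2 lower of 29 (13.9% and 13.5%). Pgf, which was higher in KO ungated cells, was at −1.37 in myotube-like and −1.33 in keratinocyte-like cells. Cycling cells of KO at day 35 had 8 genes higher and 18 lower (30.5% and 29.8% of all genes), and 224 of those 346 cells were also pluripotent-like, against 0 of 192 in WT.

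Across cell classes the list did not behave as one unit. Each class was set against all other cells of its library, and a gene was counted when it passed 1.5-fold in every library with at least 50 cells of the class. Otic epithelial-like cells, which carry genes of the tectorial and otolithic membranes, had 4 of the 35 genes higher in all 4 libraries and 2 lower, beside 12.8% and 10.4% of all genes. Car9 led them, at 674 and 667 CPM at day 25 (WT, then KO) and at 450 and 671 CPM at day 35, and its log2 ratio over the other cells was 3.18, 3.23, 2.06 and 2.77. Fibroblast-like cells were at 25.2 to 37.9 CPM. A chondrocyte-like gate of 11 cells in KO at day 25 stood at 817 CPM. Hk2, the inducible hexokinase, was 0.83 to 1.39 higher in otic epithelial-like cells, Vegfa 0.86 to 1.53 and Bnip3 0.60 to 0.99. Pgf and P4ha2 were lower there.

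Keratinocyte-like cells were high in Slc2a1, the glucose transporter GLUT1, at 443, 363, 327 and 472 CPM in the same order (log2 1.06 to 1.45 over the other cells), and in Ndrg1, a stress-induced gene of differentiating epithelium (at least 0.92). Those were the 2 genes higher in all 4 libraries, and 3 were lower (5.56% and 8.32% of all genes). Slc2a3 was among the lower ones, at −1.95 to −1.69. The 2 glucose transporters thus pointed in opposite directions in these cells.

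Skeletal myotube-like cells had 5 genes higher and 4 lower in all 4 libraries (6.60% and 27.6% of all genes). Pfkm, the muscle phosphofructokinase, was at 89.5, 116, 92.5 and 164 CPM, with a log2 ratio of 2.25 to 3.26. Aldoa (0.77 to 1.35), Tpi1 (0.66 to 1.43), Gapdh (0.73 to 1.14) and the prolyl hydroxylase Egln3 (0.68 to 0.97) were the others. Vegfa, Pgf, Ndrg1 and Slc2a3 were lower. Myogenic progenitor-like cells had none higher and 14 lower (5.69% and 7.39%), among them Slc2a1, Hk2, Adm and Ankrd37.

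Fibroblast-like cells had none higher and 9 lower (7.81% and 13.4%), with Car9 at −1.30 or lower and Egln3 at −1.43 to −1.08. P4ha1 and P4ha2, whose product matures collagen, were the nearest to being high in them, P4ha2 at 0.29 to 0.87 and P4ha1 at 0.14 to 0.59. Neuron-like cells, counted in the 2 day 25 libraries, had Slc2a3 higher (0.78 and 0.82) and 8 genes lower (26.2% and 18.4%). Astrocyte-like cells in 3 libraries had Pfkm higher (0.77 to 1.72) and 9 lower (18.3% and 7.24%). Schwann or satellite glia-like cells in 2 had Car9 higher (0.60 and 0.82) and 7 lower (22.8% and 7.85%), and oligodendrocyte lineage-like cells in 1 library had none higher and 22 lower (49.3% and 16.5%). Cycling cells had none higher and 21 lower in all 4 libraries (6.46% and 10.9%), among them Adm, Vegfa, Slc2a1 and Car9. Adipocyte-like cells in 3 libraries had Aldoa higher (0.60 to 1.12) and 7 lower (7.35% and 15.8%). Pluripotent-like cells of the KO library at day 35 had 2 higher, Slc2a3 (1.63) and Eno1 (0.72), and 27 lower, beside 24.4% and 49.0% of all genes, with Car9 at 6.82 CPM and Pgf at 7.02 CPM.

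**Figure D4:**
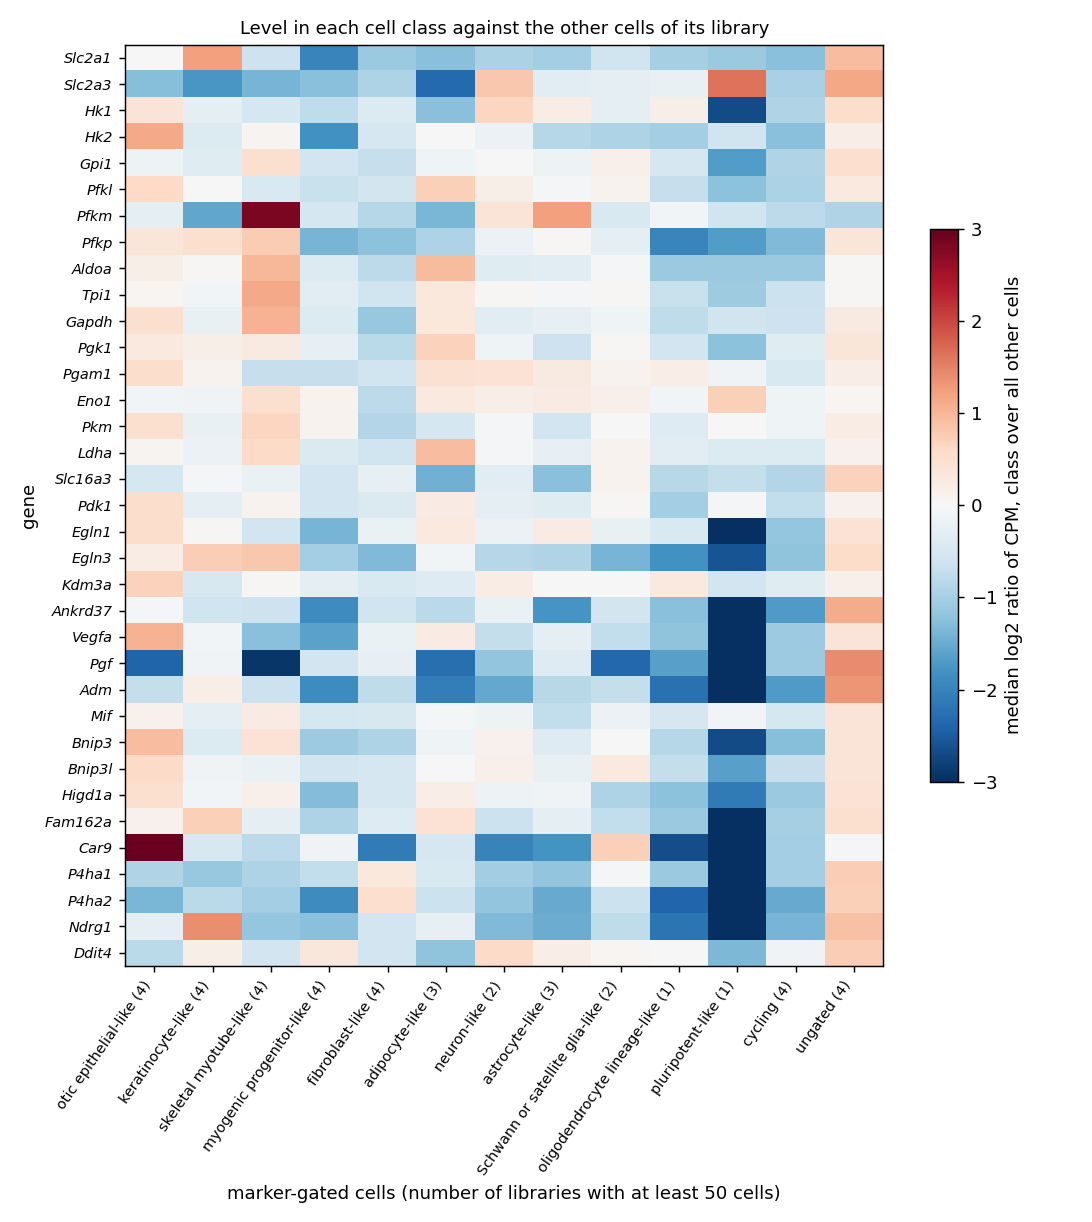
Median over libraries of the log2 ratio of CPM, class over all other cells of the library (colour, red higher, blue lower, limited at 3), for the 35 genes (rows) and 13 cell groups (columns, with the number of libraries of at least 50 cells). Car9 in otic epithelial-like cells and Pfkm in skeletal myotube-like cells are the darkest red, and pluripotent-like cells are blue for 27 genes past 1.5-fold.

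Ungated cells had 6 of the 35 genes higher in all 4 libraries (Adm, Pgf, Ankrd37, Slc2a1, Ndrg1 and Ddit4) and 1 lower (Pfkm), where 0.676% of all genes were higher and 5.82% lower. Adm was at 140 and 164 CPM at day 25 (WT, then KO) and at 296 and 361 CPM at day 35, log2 1.22, 1.43, 1.07 and 1.83 over the other cells. Pgf, a ligand of VEGF receptor 1, was at 129, 128, 106 and 174 CPM. The leading genes of the ungated cells by fold included Bpifa1, Pgf, Cldn10, Adm, Ero1l and Ankrd37. The ungated cells hold few marker UMIs by construction.

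Hair cell-like cells, the sensory cells, numbered 8, 9, 48 and 26, under the 50 cells used for ratios. At day 35 their Bnip3 level was 858 CPM in WT (726 to 1007) and 1026 CPM in KO (847 to 1230), and their Gapdh level 2907 CPM (2660 to 3171) and 3978 CPM (3619 to 4363). The Pgk1 level of hair cell-like cells was 62.9 CPM in WT (31.4 to 113) and 17.7 CPM in KO (2.14 to 63.9). The intervals of Bnip3 and Pgk1 overlap and those of Gapdh do not. They cover counting error only and leave out the spread between cells and between libraries. Over all cells at day 35, thinned to equal depth, the variance over mean of Gapdh was 5.33 in WT and 6.50 in KO. That is more than counting alone gives, so these intervals cannot decide whether the genotypes differ. Free RNA of other cells was not removed from these values.

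How the response was spread over cells was described at equal depth, with each cell thinned to 2000 UMIs. A set of 4 targets was used (Adm, Vegfa, Ankrd37 and Egln3), which was chosen after the values had been seen. At least 1 UMI of the set was found in 46.4% (exact binomial interval 45.4% to 47.4%) of WT and 50.7% (49.8% to 51.7%) of KO cells at day 25, and in 54.5% (53.4% to 55.7%) and 54.6% (53.4% to 55.8%) at day 35. The WT library at day 35 lost 707 cells that were too shallow, and the others none. Without thinning the shares were 73.2%, 76.6%, 65.1% and 73.2%, an order that followed depth. At day 35 the share ran from 10.7% in pluripotent-like cells, through 39.4% in fibroblast-like to 68.1% in ungated cells of KO, and from 21.0% in cycling to 62.3% in keratinocyte-like cells of WT. The count of the set per cell had a variance over mean of 1.94, 2.07, 2.43 and 2.67 in the 4 libraries, above the 1 that counting alone gives, so the targets were unevenly spread over cells.

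Cells with an Adm UMI at this depth were then set against cells of the same class and library without one, a split that was also made after seeing the values. With each cell's counts scaled to 2000 UMIs, 27 of the other 34 genes were at least 1.5-fold higher in fibroblast-like cells with Adm in each of the 4 libraries, and none was lower, beside 1.37% and 1.15% of all genes. From the thinned UMIs themselves, which the values below use, the count was 23 of 34 with none lower. Only the listed genes were thinned, so that count has no share of all genes beside it. The cells with Adm numbered 172 (WT) and 248 (KO) at the earlier day and 293 and 195 at the later. Slc2a1 was at 0.541 UMIs per cell with Adm and 0.181 without in WT at day 25, and its log2 ratio was 1.11 to 1.72 over the libraries. Egln3, a prolyl hydroxylase that is itself induced by hypoxia, had 1.25 to 1.86, Bnip3 1.16 to 1.28, and Pgk1 0.88 to 1.03. The 11 genes that missed 1.5-fold in at least 1 library were Pgf, Vegfa, Egln1, Kdm3a, Hk1, Hk2, Tpi1, Aldoa, P4ha1, Pdk1 and Pfkm.

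In ungated cells 8 of the 34 genes were higher in each library and none lower, by either measure, beside 0.632% and 5.55% of all genes with scaled counts. The ratios were smaller, with Slc2a1 at 0.92 to 1.19 and Pgk1 at 0.21 to 0.54. The thinned ratio was above 0 in all 4 libraries for 32 of the 34 genes in each class, all but Pdk1 and Pfkm in fibroblast-like and all but Kdm3a and Pfkm in ungated cells. The share of all genes above 0 was not computed from thinned UMIs, so this count has no background. Pfkm was at −0.81 to 0.44 in fibroblast-like cells. Over all cells 16 of the 34 genes were higher and none lower with scaled counts, beside 1.25% and 8.04% of all genes. Cells of 1 library share their preparation, and these ratios describe the cells of each library.

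**Figure D5:**
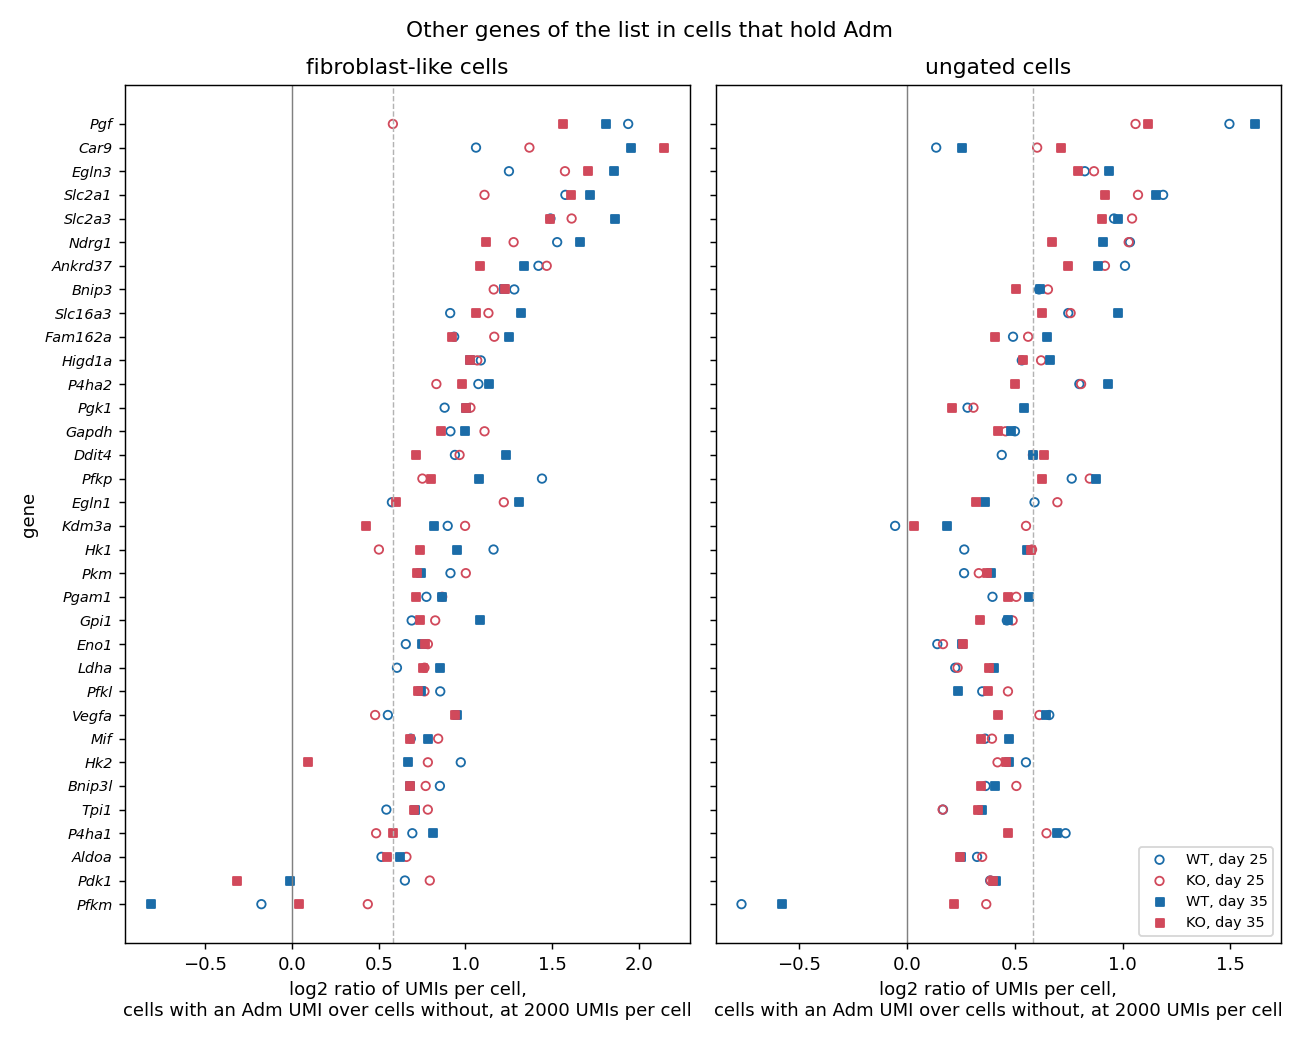
Log2 ratio of UMIs per cell, cells with an Adm UMI over cells without one (x axis), for the other 34 genes (y axis) in fibroblast-like (left) and ungated cells (right) thinned to 2000 UMIs, with 1 symbol per library (circles day 25, squares day 35, WT blue, KO red). In fibroblast-like cells the symbols of Slc2a1 lie between 1.11 and 1.72 and those of Pfkm spread around 0.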

How the data were processed

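Unique molecular identifier (UMI) counts from droplet 3′ RNA libraries (10x v2) were read as the authors deposited them, 1 matrix of raw counts per gene and cell barcode for each of the 4 libraries. The submitters' processing notes name bcl2fastq, Cell Ranger 2.1.0, R 3.5.1 and Seurat 2.3.1, with mm10 and GRCm38 as builds. The handling of multiply mapped reads is not given in the sources used here. Barcodes with at least 500 genes and at most 10% mitochondrial UMIs were kept (30887121 to 84439223 UMIs per library). Doublets were not called, beyond leaving cells that passed several marker gates (122 to 300 per library) out of the classes, and free RNA was not removed. Counts were summed per library or class and given as counts per 1000000 UMIs (CPM) with exact Poisson intervals, and ratios with Clopper-Pearson intervals, at 95%. The ratio intervals were run on simulated Poisson counts only. That is the model they assume, so the run cannot show how they cover the spread between cells or libraries. With 1 library per group, groups were compared by values and no test between them was made. A ratio needed at least 20 UMIs over both libraries and a class at least 50 cells, and any of the 35 genes could be named, with up to 3 highest and 3 lowest of the other pathway genes per comparison. The genes and lists were chosen with earlier results of these data known. Promoter sequences are from RefSeq (GRCm38.p6). Python 3.11.15 with numpy 2.4.6, scipy 1.17.1 and pandas 2.3.3 was used, with edgeR 4.0.16 in R 4.3.3 for trimmed mean of M values factors. Alternatives changed the barcode filter, scaling, minimum UMIs, class makeup and depth.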

Additional observations from a re-analysis of the deposited data

Results flagged for a closer look

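In 4 cases the ratio of KO over WT inside a class passed 1.5-fold in one direction at day 25 and in the other at day 35, among 236 pairs of gene and class of which 108 changed sign at any size, with 1 library per genotype and day, and the difference between days was not tested. In keratinocyte-like cells the log2 ratio of Hk1 was −0.70 at day 25 and 0.64 at day 35, a difference of 1.34, and that of Pdk1, which restrains pyruvate oxidation, was −0.71 and 0.88, a difference of 1.59. These rest on 434 and 214 cells at day 25 and on 73 and 103 cells at day 35. The day 35 ratios rest on 41 UMIs for Hk1 (interval −0.46 to 1.89) and 52 for Pdk1 (−0.14 to 2.04). Both intervals include 0, so counting error alone leaves the direction at day 35 undecided. In cycling cells the log2 ratio of Slc2a3 was −0.77 at day 25 and 2.82 at day 35, a difference of 3.60, and that of Hk2 was −0.69 and 1.09, a difference of 1.78. Of the 346 KO cycling cells at day 35, 224 were also pluripotent-like, against 0 of 192 in WT, and the part of these cells in the difference was not tested.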

How the results depend on the processing

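No paired analysis was possible because each group compared has 1 library, with no replicate numbers to pair and no replicate to leave out. An additive fit of genotype and day over the 4 libraries was not run. Over single genes, 1617 alternative values kept their sign and their side of 1.5-fold and 162 changed sign within 1.5-fold, most often with trimmed mean of M values (TMM) factors (31) or median-of-ratios factors (29). Another 24 passed 1.5-fold, 16 no longer did, and 1 that had passed it changed sign, Car9 between days in WT (−0.26 with classes weighted equally). The values with at least 1 UMI and with at least 100 UMIs, 140 each, repeat the main ratios. They are among those that kept their sign and could not have changed. The cause was not tested for any change given here. The count past 1.5-fold for KO over WT at day 25 was 1 in place of 0 with at least 1000 genes and at most 5% mitochondrial UMIs, with TMM or median-of-ratios factors, without skeletal myotube-like cells, with classes weighted equally, and with each cell thinned to 2000 UMIs, a setting added after seeing the data. At day 35 it was 1 in place of 3 without pluripotent-like cells. The median log2 ratio of the list for KO over WT at day 35, 0.14, was 1.81e-05 with the stricter barcode filter, −0.066 with TMM and −0.083 with median-of-ratios factors, and those factors moved the median of all genes by −0.20 and −0.22. Between days the median was 0.18 in WT and 0.27 in KO with the stricter filter, against −0.13 and 0.07. In KO it was −0.071 relative to UMIs outside mitochondrial and ribosomal protein genes, −0.11 with TMM, −0.086 with median of ratios and 0.31 with classes weighted equally. Signs of list medians are therefore not stable, whereas Pgk1 was lower at day 35 under every alternative run. At 1000 UMIs per cell the shares of cells with a UMI of the 4 targets were 30.8%, 34.4%, 38.6% and 39.9% (WT, KO at day 25, then WT, KO at day 35).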
